A study of Mus musculus with 12 samples.

Results

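The potassium channel genes of the mouse were taken as every protein-coding row of the deposited expression table whose gene name begins with Kcn. The rule gave 93 loci from 92 genes, of 21852 protein-coding loci and 40597 loci in all. Kcnq1 has 2 rows with the same Ensembl identifier, and no source used here says which of its transcripts each row holds. The row with the higher level has a locus number beyond those of the minus-strand Kcn loci of chromosome 7, although Kcnq1 is on the plus strand. The antisense transcript Kcnq1ot1 overlaps Kcnq1, and whether that row holds antisense RNA was not tested. RNA came from primary neurospheres, floating clusters of neural stem and progenitor cells, derived from hypothalami of C57Bl/6 embryos at embryonic day 14.5. At passage 3 the cultures were exposed for 4 hours to 100 nM dexamethasone, a synthetic agonist of the glucocorticoid receptor, or to its ethanol vehicle. Male vehicle, male dexamethasone, female vehicle and female dexamethasone groups held 3 biological replicates each, so 12 libraries were measured. All 4 groups share the strain, age, passage and exposure time and the labels name no genetic modification. What separates one biological replicate from another is not given, so p-values measure the spread between these libraries.

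Potassium channels are membrane pores that let potassium leave or enter a cell down its electrochemical gradient, and they set the resting potential and the shape of electrical signals. Voltage-gated (Kv) pores open on depolarisation, calcium- and sodium-activated pores open on a rise of those ions inside the cell, inward rectifiers (Kir) pass current most easily into the cell, and tandem-pore-domain (K2P) channels carry background leak. Silent Kv subunits form channels only together with other Kv subunits, and auxiliary subunits bind a pore and change its trafficking or gating. In neural progenitors and glia, potassium conductances hold the membrane at a negative potential and help to clear extracellular potassium.

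Values are FPKM, fragment abundances scaled for transcript length and library size, so levels can be compared between genes. The Kcn loci summed to between 198 and 266 FPKM per library. Group means of that sum were 230 ± 14.5 FPKM in male vehicle, 218 ± 17.1 in male dexamethasone, 242 ± 35.7 in female vehicle and 235 ± 23.6 in female dexamethasone (SD, n = 3). Loci without a gene name took 75.0% of all FPKM in male vehicle library 3 and 53.1% in male dexamethasone library 2, against 11.6% to 38.6% in the others. Protein-coding loci summed to 444189 and 480974 FPKM in these libraries, inside the range of 437353 to 509125 FPKM in the others. Because of the unnamed share alone, results are also given without those libraries. Known glucocorticoid-induced genes were higher under dexamethasone in each sex for 5 of 5 genes checked, among them Fkbp5, a chaperone of the receptor, whose mean went from 20.3 FPKM under vehicle to 113 under dexamethasone. The depth behind the FPKM is unknown, and no counting interval is given.

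Every potassium-selective pore carries a conserved pore loop, the stretch that lines the selectivity filter, and its coding sequence is what sets the pore and silent subunits apart from the auxiliary ones. An in-frame search of the coding strand of the longest coding transcript of each gene (GENCODE M21, GRCm38) for the 9-base cores GGNTANGGN and GGNTTNGGN found a match in 76 of 76 pore and silent subunit genes and in 0 of 16 auxiliary genes. The same search found a match in 16.4% of the other 21470 coding genes. At least 2 matches were present in 11 of 14 K2P genes, whose proteins carry a pair of pore loops. The stretches listed here, each 45 bases long with the core in capitals, show the loop in Kcnt1, which was called, in Kcnk3, which had the lowest log2 fold change, in Kcnj16, which led the inward rectifiers by level, and in Kcnn3, Kcna2 and Kcnh2 as examples of other subfamilies. Kcnn2 also holds 1 core, and its stretch is not shown here. The first match of Kcnk3 spans the junction of exons 1 and 2.
Kcnt1, chr2:25894352-25894396, plus strand, exon 11: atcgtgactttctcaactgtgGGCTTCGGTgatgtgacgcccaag
Kcnn3, chr3:89645497-89645541, plus strand, exon 4: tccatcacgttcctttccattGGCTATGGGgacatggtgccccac
Kcnk3, first match, exons 1 and 2: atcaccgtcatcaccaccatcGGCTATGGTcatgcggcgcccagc
Kcnk3, second match, chr5:30622187-30622231, plus strand, exon 2: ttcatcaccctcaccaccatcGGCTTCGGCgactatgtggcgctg
Kcna2, chr3:107105209-107105253, plus strand, exon 3: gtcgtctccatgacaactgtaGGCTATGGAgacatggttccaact
Kcnh2, chr5:24325540-24325584, minus strand, exon 7: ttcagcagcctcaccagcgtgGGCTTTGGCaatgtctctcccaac
Kcnj16, chr11:111024889-111024933, plus strand, exon 2: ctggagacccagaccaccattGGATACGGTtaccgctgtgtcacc
Of the 26 pore and silent subunit genes that passed the level filter, with Kcnq1 counted by its higher row, 23 held a GGNTANGGN core. Kcnt1, Kcnh2 and Kcnk2 held the GGNTTNGGN core alone. A match is a description of the sequence and says nothing on the channel's function in these cells.

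Averaged over the 12 libraries, 30 Kcn loci reached 1 FPKM or more (32.3%), against 50.2% of all protein-coding loci. At least 5 FPKM was reached by 9 of them and at least 10 FPKM by 6. The highest was Kcnip3, an auxiliary Kv channel-interacting protein also known as DREAM or calsenilin, at a mean of 41.8 FPKM. It was followed by the A-type Kv4 pores that such proteins bind, Kcnd3 at 35.3 FPKM and Kcnd2 at 20.9 FPKM. Next came Kcna2, a delayed-rectifier Kv1 pore, at 18.8 FPKM, Kcnmb4, an auxiliary beta subunit of the BK channel, at 18.4 FPKM, and Kcnj16, an inward rectifier subunit, at 14.1 FPKM. The 5 highest loci of a library took 51.8% to 64.9% of its Kcn sum. Between 23 and 32 Kcn loci were at 1 FPKM or more in a library.

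**Figure D1:**
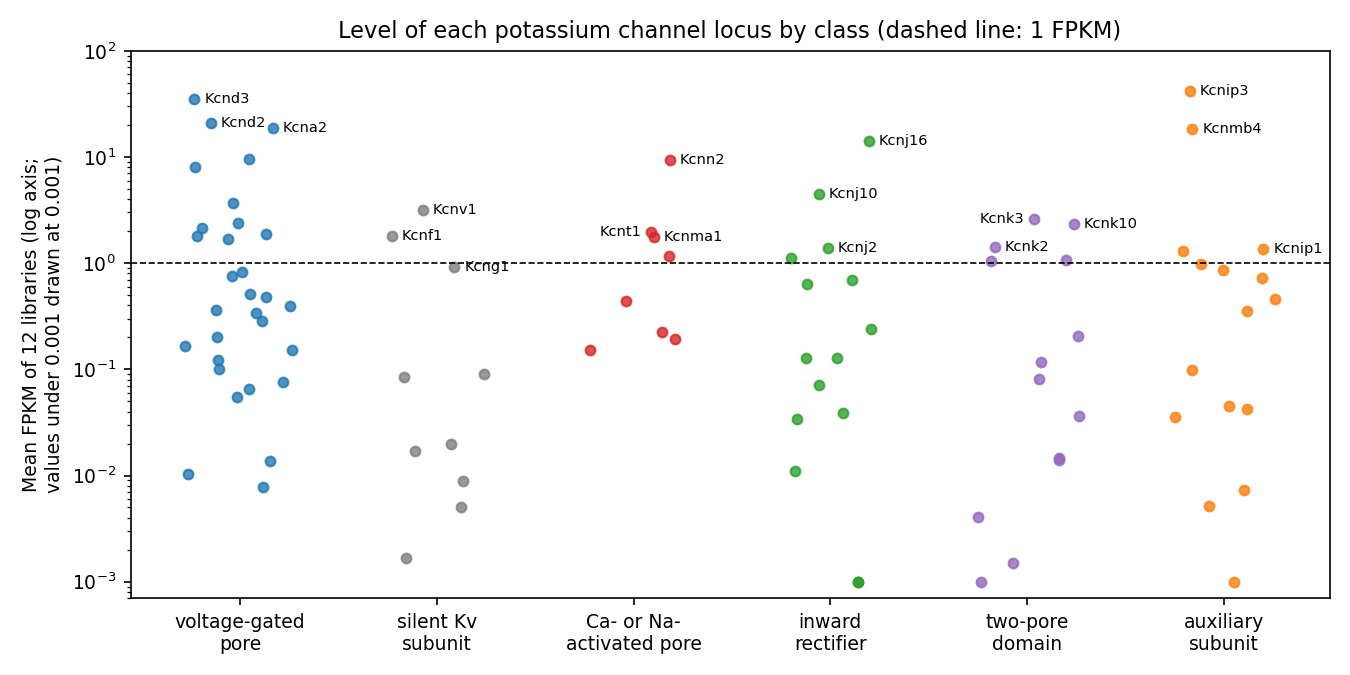
Mean FPKM over 12 libraries (log axis) of each of the 93 Kcn loci, 1 point per locus, grouped by class, with the 3 highest of each class named and a dashed line at 1 FPKM. Kcnip3 at 41.8 FPKM and Kcnd3 at 35.3 FPKM lead, and 63 loci lie below the line, 4 of them listed at 0 and drawn at the bottom.

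By summed mean level the voltage-gated pores were first with 111 FPKM over 30 loci, of which 11 passed the filter. Auxiliary subunits summed to 66.5 FPKM, with 4 of 16 loci past the filter, and inward rectifiers to 23.1 FPKM, with 4 of 15. Calcium- and sodium-activated pores summed to 15.1 FPKM, with 4 of 8 past the filter. The K2P loci summed to 8.97 FPKM, with 5 of 14 past it, and the silent Kv subunits to 6.15 FPKM, with 2 of 10. In relative terms the calcium- and sodium-activated class was the one whose sum differed most between treatments, at 7.45 FPKM under vehicle and 22.8 FPKM under dexamethasone. That difference lay in Kcnn2, with means of 2.71 and 15.8 FPKM, and Kcnt1, with means of 0.481 and 3.42 FPKM. Of the other tested members, Kcnn3 was at 1.48 and 0.848 FPKM and Kcnma1 at 1.71 and 1.79 FPKM. Voltage-gated pores summed to 121 FPKM under vehicle and 102 FPKM under dexamethasone.

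The comparison of dexamethasone with vehicle, averaged over both sexes, asks which channel transcripts differed after 4 hours of glucocorticoid exposure. Kcnn2 and Kcnt1, the pores of a calcium-activated and a sodium-activated channel, rose. They were 2 of the 30 loci tested, both in the same direction, and none of the 30 fell at an adjusted p under 0.05 in limma without a replicate block. Kcnt1 passed the level filter only through the dexamethasone libraries, with a vehicle mean of 0.481 FPKM, so the count of 2 is a description and not support for a lean of the Kcn loci. Kcnk1 also passed the filter only through dexamethasone (vehicle mean 0.680 FPKM), and Kcnn3, Kcnj13 and Kcnk5 only through vehicle. Counts of signs, unadjusted p-values and non-overlapping libraries that hold these loci are descriptions too. With no filter on level Kcnn2 and Kcnt1 still passed the test (limma adjusted p = 0.00970 for Kcnn2 and 0.00691 for Kcnt1). Over all 14931 loci tested, 1.53% were called, 1.15% higher and 0.388% lower. At an unadjusted p under 0.05, 7 of the 30 differed (23.3%), 5 higher and 2 lower, against 13.6% of all loci tested, 6.86% higher and 6.74% lower. The log2 fold change was positive for 13 of the 30 and negative for 17, with a median of -0.15 against -0.0067 over all loci tested. With the protein-coding loci of each library scaled to equal sums, 3 were called, 2 higher and 1 lower, the third being Kcnk3. The same fit called 2.47% of all 10979 loci that it tested, and 1.07% were called lower. A fit with the replicate number as a block, a pairing that the labels do not give, called 6 Kcn loci, 2 higher and 4 lower. It called 5.38% of all 14931 loci, and 2.57% were called lower. In bulk RNA, fewer cells of a type and less RNA per cell cannot be told apart.

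**Figure D2:**
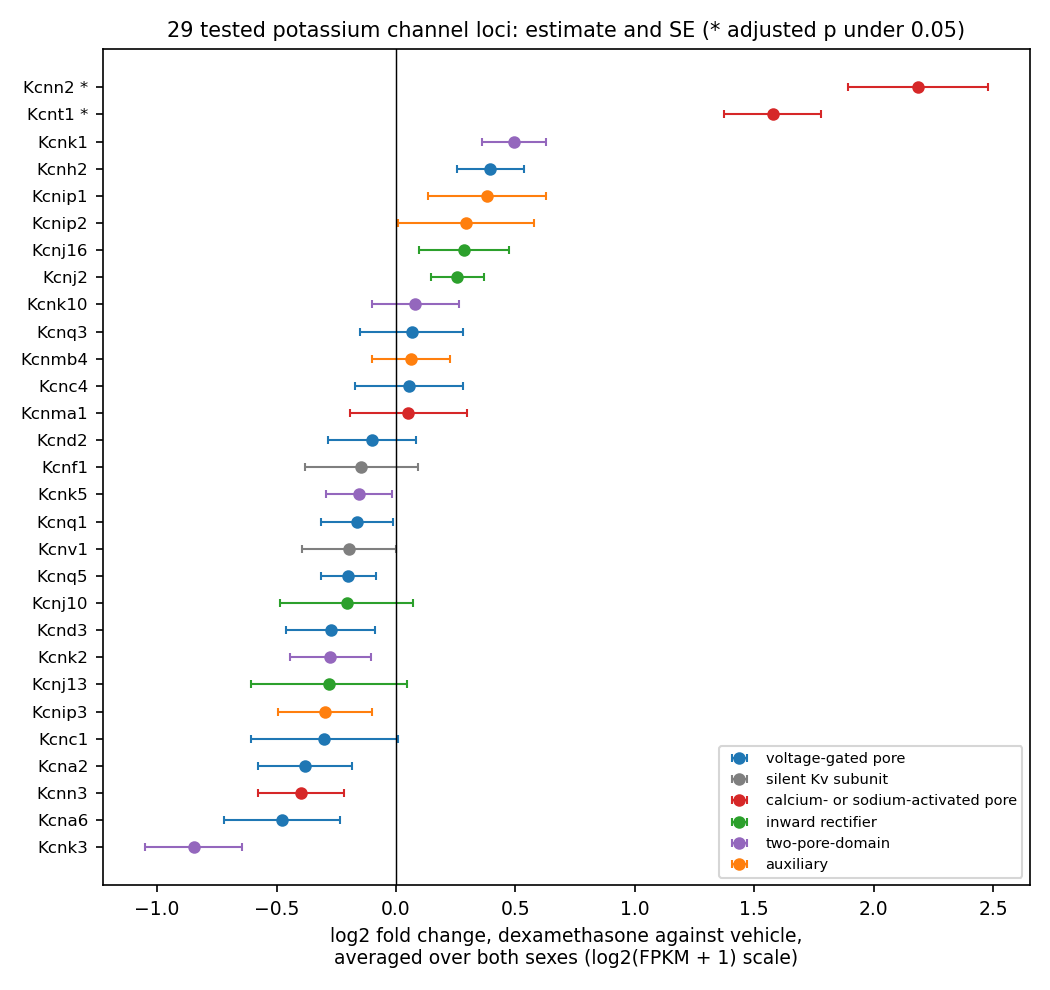
Log2 fold change of dexamethasone against vehicle averaged over both sexes (x axis, log2(FPKM + 1) scale) for 29 of the 30 tested Kcn loci, ordered by size, with bars of 1 SE and colours for class. Kcnn2 at 2.19 and Kcnt1 at 1.58 stand to the right and carry the asterisk of an adjusted p under 0.05, and Kcnk3 at -0.85 is at the lower end.

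Among the calcium- and sodium-activated pores, Kcnn2 encodes the small-conductance SK2 channel, which opens when calmodulin bound to it takes up calcium. It lies on chromosome 18. Its level under vehicle was 2.198, 1.37 and 1.92 FPKM in the male libraries 1 to 3 and 2.40, 6.32 and 2.05 FPKM in the female ones. Under dexamethasone it was 21.7, 8.42 and 9.88 FPKM in male libraries and 16.9, 25.6 and 12.5 FPKM in female ones. The lowest dexamethasone library was above the highest vehicle library, which was female vehicle library 2. The mean was 5.83 times as high under dexamethasone, and the log2 fold change was 2.19 (SE 0.29, limma adjusted p = 0.00457). The annotation places antisense and pseudogene transcripts on the opposite strand within Kcnn2, and the strand setting of the counting is not given.

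Kcnt1 encodes Slack, a sodium-activated channel, at chr2:25863734-25918273 (GRCm38), and no other annotated gene overlaps it. Under vehicle it was at 0.316, 1.08 and 0.173 FPKM in male libraries and at 0.175, 0.603 and 0.539 FPKM in female ones. Under dexamethasone it was at 2.83, 4.596 and 3.02 FPKM in male libraries and at 2.54, 2.67 and 4.86 FPKM in female ones. All 6 dexamethasone libraries were above all 6 vehicle libraries, of which only male vehicle library 2 passed 1 FPKM. The mean was 7.10 times as high under dexamethasone, and the log2 fold change was 1.58 (SE 0.20, limma adjusted p = 0.00376), which this scale understates for a gene at low level. Kcnn2 and Kcnt1 were the Kcn loci whose 6 dexamethasone libraries all lay above the 6 vehicle libraries, against 1.41% of all loci tested, and none of the 30 lay wholly below, against 0.804%. Without male vehicle library 3 and male dexamethasone library 2, the log2 fold change was 2.32 for Kcnn2 (limma adjusted p = 0.0254) and 1.41 for Kcnt1 (limma adjusted p = 0.0332).

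The other 2 tested pores of the class were not called. Kcnn3, the SK3 channel of the same subfamily as Kcnn2, ranged from 0.807 to 2.54 FPKM under vehicle, with a median of 1.36, and from 0.533 to 1.14 FPKM under dexamethasone, with a median of 0.847. The treatments overlapped, and its log2 fold change of -0.40 (SE 0.18, limma adjusted p = 0.37) has the opposite sign to that of Kcnn2. Kcnma1, the pore of the large-conductance BK channel, had means of 1.71 FPKM under vehicle and 1.79 FPKM under dexamethasone, a log2 fold change of 0.05. Kcnn1, Kcnn4, Kcnu1 and Kcnt2 were below 1 FPKM, with Kcnt2, the closest relative of Kcnt1, at a mean of 0.151 FPKM. The plot of FPKM by library shows Kcnn2 and Kcnt1 beside Kcnn3, Kcnk1, Kcnk3 and Kcna6, which were not called.

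**Figure D3:**
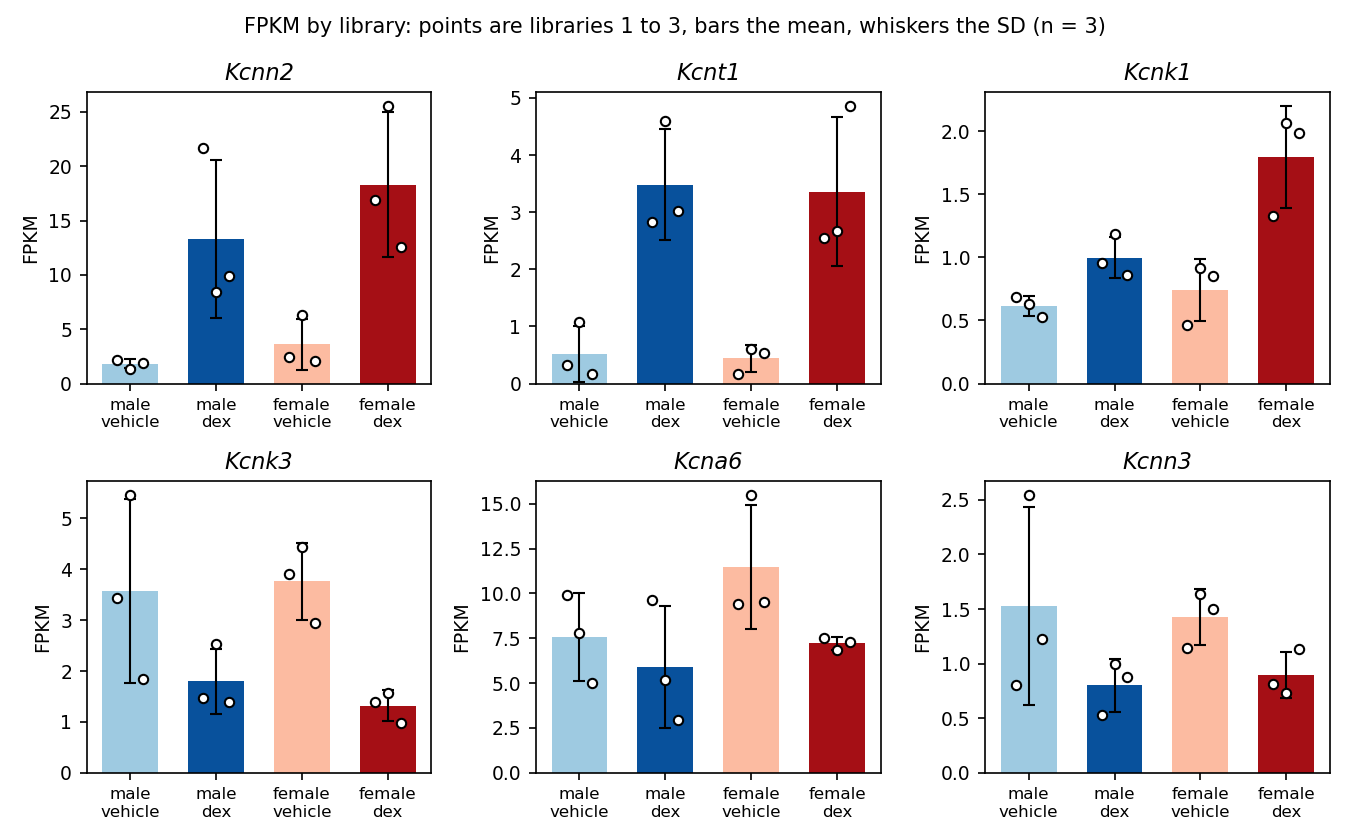
FPKM (y axis, separate scale per panel) in each library of the 4 groups for Kcnn2, Kcnt1, Kcnk1, Kcnk3, Kcna6 and Kcnn3, with points for libraries 1 to 3, bars for the group mean and whiskers for the SD (n = 3). In the Kcnn2 and Kcnt1 panels every dexamethasone point is above every vehicle point, and in the Kcnk3 panel the treatments overlap between 1.84 and 2.54 FPKM in males.

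Among K2P leak channels, none of the 5 tested was called. Kcnk3 (TASK-1, an acid-sensitive leak channel, chr5:30588170-30625271) was at 3.43, 5.46 and 1.84 FPKM in male vehicle libraries and at 1.46, 2.54 and 1.38 FPKM in male dexamethasone libraries. In female libraries it was at 3.91, 4.44 and 2.95 FPKM under vehicle and at 1.39, 1.58 and 0.980 FPKM under dexamethasone. Male vehicle library 3 was the lowest of the vehicle libraries and male dexamethasone library 2 the highest of the dexamethasone libraries, and the treatments overlap only through that pair of libraries. The vehicle mean was 2.36 times the dexamethasone mean, and the log2 fold change of -0.85 (SE 0.20) did not pass the test (limma adjusted p = 0.0904). It passed without male vehicle library 3 (log2 fold change -0.999, limma adjusted p = 0.0306) and without both libraries in which unnamed loci took over 50% of the FPKM (-1.09, limma adjusted p = 0.0253). Leaving out any other single library gave limma adjusted p-values from 0.0913 to 0.184. Kcnk3 was also called lower with the replicate number as a block, a pairing that the labels do not give. An annotated transcript, Gm9899, overlaps Kcnk3 on the opposite strand, and the strand setting of the counting is not given.

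Kcnk1 (TWIK-1, a weak inward-rectifying K2P channel) was the third largest positive difference after Kcnn2 and Kcnt1. It was at 0.687, 0.634 and 0.529 FPKM in male vehicle, 0.952, 1.18 and 0.862 in male dexamethasone, 0.462, 0.920 and 0.849 in female vehicle, and 1.33, 2.07 and 1.99 FPKM in female dexamethasone libraries. Within each sex every dexamethasone library was higher, but the highest female vehicle library was above the lowest male dexamethasone library. The mean was 2.05 times as high under dexamethasone, with a log2 fold change of 0.49 (SE 0.13, limma adjusted p = 0.138). An antisense transcript, Gm45875, overlaps Kcnk1. The stretch- and lipid-sensitive channels Kcnk2 (TREK-1) and Kcnk10 (TREK-2) had log2 fold changes of -0.27 and 0.08. Kcnk5 (TASK-2, opened by alkaline medium) had one of -0.15, and the limma adjusted p-values of these 3 genes ran from 0.508 to 0.879.

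None of the 11 tested voltage-gated pore loci was called, and 8 of the 11 had a negative log2 fold change, with a class median of -0.20. Both counts include the tested Kcnq1 row, which may hold antisense RNA. Over all loci tested, 51.5% were negative and the median was -0.0067. Kcna6, a Kv1 pore, ranged from 5.01 to 15.5 FPKM under vehicle, with a median of 9.48, and from 2.93 to 9.61 FPKM under dexamethasone, with a median of 7.07 (log2 fold change -0.48, SE 0.24, limma adjusted p = 0.42). The treatments overlapped. Kcna2 was at 21.6, 20.6 and 26.3 FPKM in male vehicle and at 12.9, 16.5 and 19.1 FPKM in male dexamethasone libraries, which did not overlap, whereas the female libraries did, at 14.1 to 26.9 FPKM under vehicle and 10.6 to 21.8 FPKM under dexamethasone. Its log2 fold change averaged over the sexes was -0.38 (SE 0.20, limma adjusted p = 0.424). Kcna2 was called lower with the replicate number as a block, a pairing that the labels do not give.

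Taken as groups and not as pairs of equal replicate number, the levels of the most abundant voltage-gated pores overlapped between treatments. Kcnd3 ranged from 27.7 to 49.2 FPKM under vehicle and from 24.4 to 40.3 FPKM under dexamethasone (log2 fold change -0.27, SE 0.19), and Kcnd2 from 15.9 to 27.9 FPKM and from 14.7 to 25.9 FPKM (-0.10, SE 0.18; 0.00916 without female dexamethasone library 1). Kcnc1, a fast Kv3 pore typical of rapidly firing neurons, ranged from 5.83 to 16.7 FPKM under vehicle and from 5.08 to 12.7 FPKM under dexamethasone (-0.30, SE 0.31). Kcnc1 was called lower with the replicate number as a block, a pairing that the labels do not give. Kcnh2 (ERG1, a slowly deactivating pore) was the largest positive value of the class. It ranged from 2.43 to 4.47 FPKM under vehicle, with a median of 2.84, and from 3.19 to 5.29 FPKM under dexamethasone, with a median of 4.55 (log2 fold change 0.39, SE 0.14, limma adjusted p = 0.268). The Kv7 pores of the slow M-type and related currents, Kcnq5 and Kcnq3, had log2 fold changes of -0.20 and 0.07. The tested row named Kcnq1, which may hold antisense RNA, had one of -0.16, and the Kv3 pore Kcnc4 one of 0.05. The silent subunits Kcnv1 and Kcnf1, with means of 3.18 and 1.81 FPKM, had log2 fold changes of -0.20 and -0.14.

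None of the 4 tested inward rectifiers was called. Kcnj16 (Kir5.1), which assembles with Kir4.1, ranged from 7.28 to 16.9 FPKM under vehicle, with a median of 13.1, and from 12.5 to 21.2 FPKM under dexamethasone, with a median of 15.02 (log2 fold change 0.28, SE 0.19, limma adjusted p = 0.541). Its partner Kcnj10 (Kir4.1), the main potassium-buffering channel of glia, ranged from 3.15 to 8.75 FPKM under vehicle and from 2.08 to 6.63 FPKM under dexamethasone (-0.21, SE 0.28). Kcnj2 (Kir2.1), a strong rectifier, was at 1.00 to 1.38 FPKM under vehicle and at 1.24 to 1.89 FPKM under dexamethasone (0.26, SE 0.11, limma adjusted p = 0.354), and it had the smallest residual SD of the 30 loci, 0.136 on the log2 scale. Kcnj13 (Kir7.1) had the largest, 0.595, with libraries from 0.184 to 2.70 FPKM (-0.28, SE 0.33). Kcnj13 lies within Gigyf2 on the opposite strand. The median residual SD of the 30 loci was 0.359, against 0.249 for all tested loci with a mean of 1 to 20 FPKM.

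None of the 4 tested auxiliary subunits was called. Kcnip3 was at 54.4, 47.9 and 28.9 FPKM in male vehicle, 47.0, 36.2 and 21.2 in male dexamethasone, 46.5, 50.1 and 48.0 in female vehicle and 38.7, 44.2 and 38.6 FPKM in female dexamethasone libraries. The female treatments did not overlap and the male ones did, and the averaged log2 fold change was -0.30 (SE 0.20, limma adjusted p = 0.541). Kcnip3 was called lower with the replicate number as a block, a pairing that the labels do not give. Kcnmb4 ranged from 12.4 to 21.9 FPKM under vehicle and from 12.9 to 25.1 FPKM under dexamethasone, with a log2 fold change of 0.06 (SE 0.16) that turned to -0.02 with protein-coding loci scaled to equal sums. The Kv channel-interacting proteins Kcnip1 and Kcnip2 had means of 1.35 and 1.30 FPKM and log2 fold changes of 0.38 (SE 0.25) and 0.29. Kcnip1 shares its region with Kcnmb1 on the opposite strand. Loci that join a Kcn gene to another gene fall outside the rule: the Kcna3 locus, a Kv1 pore, had a mean of 9.37 FPKM (log2 fold change -0.45, limma adjusted p = 0.633) and the Kcnab2 locus, a Kv beta subunit, one of 10.6 FPKM (0.55, limma adjusted p = 0.255).

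The other 63 loci stayed below a mean of 1 FPKM and were not tested. Of these, 30 had a mean between 0.1 and 1 FPKM and 33 one below 0.1, and 9 of the 63 reached 1 FPKM in some library. Kcnk16, Kcnj6, Kcne3 and Kcnj1 are listed at 0 in all 12 libraries, and an exact 0 in such a table can be a failed estimate. Just inside the threshold were Kcnk1 at 1.04, Kcnk5 at 1.07 and Kcnj13 at 1.13 FPKM. Just outside it were Kcne1l at 0.989, Kcng1 at 0.922 and Kcnab1 at 0.865 FPKM.

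By subfamily, the voltage-gated pores below 1 FPKM included the Kv1 genes Kcna4, Kcna1, Kcna5, Kcna10 and Kcna7, the Kv2 gene Kcnb2, the Kv3 gene Kcnc2, the Kv4 gene Kcnd1, and the other locus of Kcnq1. The EAG, ERG and ELK subfamily added Kcnh7, Kcnh8, Kcnh5, Kcnh4, Kcnh6, Kcnh1 and Kcnh3, leaving Kcnh2 as its 1 tested member of 8. Of the silent Kv subunits, all 4 Kv6 genes (Kcng1, Kcng2, Kcng4, Kcng3), all 3 Kv9 genes (Kcns1, Kcns2, Kcns3) and the Kv8 gene Kcnv2 were below it. Inward rectifiers below it were Kcnj4, Kcnj12, Kcnj9, Kcnj14, Kcnj11, Kcnj3, Kcnj8, Kcnj15, Kcnj5, Kcnj6 and Kcnj1, which include the G protein-gated genes Kcnj3, Kcnj5, Kcnj6 and Kcnj9 and the ATP-sensitive pores Kcnj8 and Kcnj11. Among K2P genes Kcnk13, Kcnk4, Kcnk6, Kcnk7, Kcnk12, Kcnk15, Kcnk9, Kcnk18 and Kcnk16 were below it. Auxiliary genes below it were all 5 KCNE genes (Kcne1l, Kcne4, Kcne2, Kcne1, Kcne3), both Kv beta genes (Kcnab1, Kcnab3), the BK beta genes Kcnmb3, Kcnmb1 and Kcnmb2, Kcnip4, and Kcnrg, which regulates Kv assembly.

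Of the loci below the threshold, Kcnj12, an inward rectifier of the Kir2 group, is singled out after its values were seen. It ranged from 0.147 to 0.590 FPKM under vehicle, with a median of 0.286, and from 0.558 to 1.21 FPKM under dexamethasone, with a median of 1.03. Within each sex every dexamethasone library was above every vehicle library, and male dexamethasone library 2 lay below female vehicle library 2. With no filter on level, its log2 fold change was 0.60 (SE 0.11, limma adjusted p = 0.0370), and it was then called beside Kcnn2 and Kcnt1.

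Within males alone, 0 of the 30 loci were called by limma, against 0.315% of all loci tested, and 3 had an unadjusted p under 0.05, against 6.38%. Kcnn2 had a log2 fold change of 2.24 (SE 0.41, limma adjusted p = 0.0758) and Kcnt1 one of 1.58 (SE 0.29, limma adjusted p = 0.0695), and Kcnk3 one of -0.66 (SE 0.29, limma adjusted p = 0.768). The male dexamethasone libraries were all above the male vehicle libraries for 3 loci, Kcnn2, Kcnt1 and Kcnk1, against 5.73% of all loci tested, and all below for Kcna2, against 6.15%. Kcnt1 and Kcnk1 passed the level filter only through the dexamethasone libraries, so the count of 3 is a description. With 1 library left out, Kcnn2 passed the test in males in 1 of 12 fits, with limma adjusted p-values up to 0.298. That fit left out female vehicle library 2, which enters only through the shared spread (limma adjusted p = 0.0435). Kcnt1 passed in males in 0 of 12 fits (limma adjusted p 0.0595 to 0.252).

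Within females alone, 0 of the 30 loci were called by limma, against 0.482% of all loci tested, and 5 had an unadjusted p under 0.05, against 8.02%. Kcnn2 had a log2 fold change of 2.13 (limma adjusted p = 0.0694), Kcnt1 one of 1.57 (limma adjusted p = 0.0538), Kcnk3 one of -1.04 (limma adjusted p = 0.276) and Kcnk1 one of 0.68 (limma adjusted p = 0.277). The female dexamethasone libraries were all above the female vehicle libraries for 5 loci, Kcnn2, Kcnt1, Kcnk1, Kcnh2 and Kcnj2, against 6.95% of all loci tested. They were all below for 4 loci, Kcnip3, Kcnn3, Kcna6 and Kcnk3, against 5.82%. Kcnt1 and Kcnk1 passed the level filter only through dexamethasone and Kcnn3 only through vehicle, so both counts are descriptions. With 1 library left out, Kcnn2 passed the test in females in 2 of 12 fits and Kcnt1 in 1 of 12. Limma adjusted p-values ran up to 0.293 for Kcnn2 and 0.171 for Kcnt1. Kcnn2 passed without female vehicle library 2 (log2 fold change 2.53, limma adjusted p = 0.0410) and without male dexamethasone library 1 (limma adjusted p = 0.0415). Kcnt1 passed without male vehicle library 2 (limma adjusted p = 0.0487).

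The difference between the sexes in the response was tested as the female minus the male effect. It was called by limma for 0 of the 30 loci, against 0.0335% of all loci tested, and 0 of the 30 had an unadjusted p under 0.05, against 1.47%. The difference was at most 0.38 in size on the log2 scale, in Kcnk3 and Kcnk1. The 2 effects had the same sign for 26 of the 30 loci (86.7%), 9 positive and 17 negative, and for 70.1% of all loci tested. Across the 30 loci Pearson's r of the male and female effects was 0.951, and 0.869 without Kcnn2 and Kcnt1, as a description across genes of the same libraries. The loci with opposite signs were Kcnc4, Kcnq3, Kcnmb4 and Kcnma1.

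**Figure D4:**
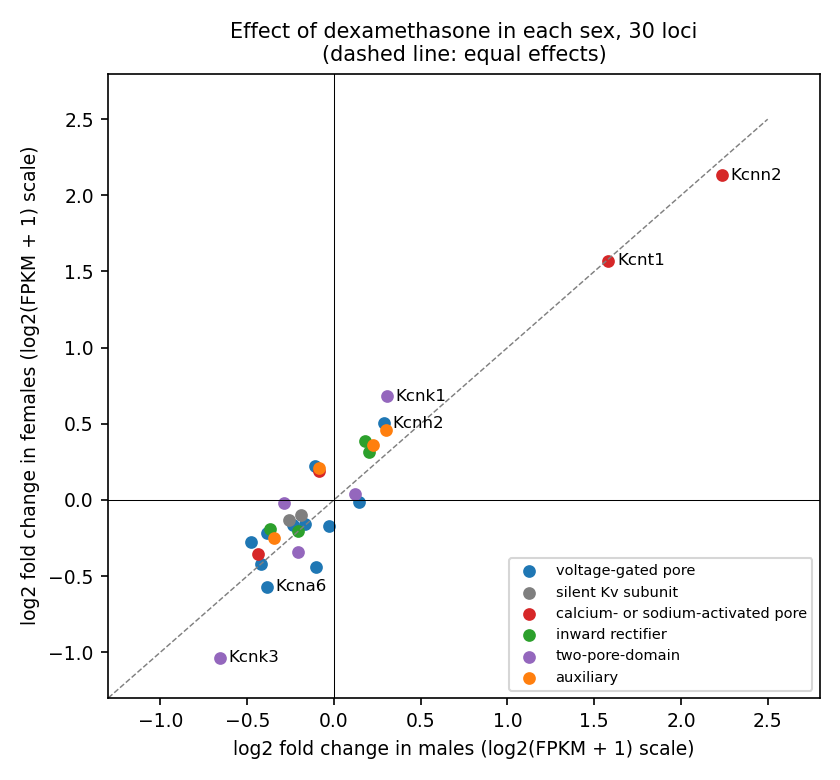
Log2 fold change of dexamethasone against vehicle in males (x axis) and in females (y axis), log2(FPKM + 1) scale, 1 point for each of the 30 tested Kcn loci, coloured by class, with a dashed line where both effects are equal. Kcnn2 at 2.24 and 2.13 and Kcnt1 at 1.58 and 1.57 lie near the line at the upper right, and Kcnk3 at -0.66 and -1.04 at the lower left.

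Female and male cultures were also compared under vehicle, as the background against which the treatment acted. By limma 0 of the 30 loci were called, against 0.0737% of all loci tested, and 1, Kcnq5 (-0.42), had an unadjusted p under 0.05, against 4.88%. Log2 differences, female minus male, ran from -0.63 in Kcnma1, at 2.28 ± 0.940 FPKM in males and 1.13 ± 0.599 FPKM in females, to 0.59 in Kcnn2, at 1.83 ± 0.420 FPKM in males and 3.59 ± 2.37 FPKM in females (SD, n = 3). Female libraries were all above male libraries for 0 loci, against 5.67% of all loci tested. They were all below for Kcnj2 and Kcnk5, against 3.54%. Kcnk5 passed the level filter only through the male libraries, so this count is a description. Its means under vehicle and dexamethasone were 1.44 and 1.02 FPKM in males and 0.925 and 0.895 FPKM in females.

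Genes that work with potassium channels were counted from lists of other families, chosen with earlier results of these data known. Of the sodium-potassium pump subunits, which build the potassium gradient, 6 of 12 passed the filter and none was called in the averaged comparison, including Atp1b3, a beta subunit, at 44.3 FPKM. None of 3 tested potassium-chloride and related cotransporters of 6, and none of 13 tested partner proteins of 20, was called. Calmodulin, the calcium sensor bound to SK channels, was abundant at 506 FPKM for Calm3 and 482 FPKM for Calm2, with log2 fold changes of 0.09 and -0.02. Of the pores that bring in the ions which open these channels, 3 of 10 voltage-gated calcium and 1 of 10 voltage-gated sodium channel pores passed the filter, and none was called. The highest were Cacna1h, a low-threshold calcium channel, at 6.36 FPKM (log2 fold change 0.47, limma adjusted p = 0.396), and Scn8a at 1.86 FPKM (-0.15). Hcn3, the tested member of the hyperpolarisation-activated family, was at 1.58 FPKM (-0.47, limma adjusted p = 0.257).

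The neurosphere label was set against marker genes. All 11 neural stem cell markers passed the filter, led by Fabp7 at 3503 FPKM and Vim at 2497 FPKM, and their sum ranged from 5834 to 7106 FPKM under vehicle and from 5561 to 7220 FPKM under dexamethasone. One of the 11 was called, Msi1 (log2 fold change -0.64, limma adjusted p = 0.0151). Of 8 oligodendrocyte lineage markers 7 passed the filter and 1 was called, Cspg4 (0.76, limma adjusted p = 0.0114). Their sum ranged from 338 to 423 FPKM under vehicle and from 330 to 436 FPKM under dexamethasone. The highest were Olig1 at 211 and Olig2 at 133 FPKM, and Mog was below the filter at 0.107 FPKM. Of 12 neuronal markers 5 passed the filter and none was called, with sums from 240 to 357 FPKM under vehicle and from 257 to 327 FPKM under dexamethasone. Map2, at a mean of 274 FPKM, held most of that sum. The next was Tubb3 at 4.98 FPKM, and Dcx was at 0.581 and Rbfox3 at 0.483 FPKM. All 9 astrocytic markers passed the filter and none was called, with sums from 599 to 1056 FPKM under vehicle and from 647 to 1356 FPKM under dexamethasone. Gfap ran from 1.15 to 78.0 FPKM between libraries. None of the 8 microglial and none of the 4 erythroid markers reached a mean of 1 FPKM, and C1qa and C1qb were at 0. Of the endothelial markers 1 of 6, of the mural and fibroblast markers 2 of 8 and of the ependymal markers 1 of 5 passed the filter, and none was called. Whether a shift in cell types has a part in the values of Kcnn2, Kcnt1 or Kcnk3 was not tested.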

How the data were processed

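RNA-seq was measured in 12 libraries, 4 groups of 3. The authors deposited FPKM per locus, with 1 column per library; per the submitters' processing notes their tools were Cuffdiff 2.2.1, Cufflinks 2.2.1 and TopHat2 2.0.9, with GRCm38 as the build. No source used here gives the annotation release, the strand setting of the counting or how libraries were scaled. FPKM carry no counts, so no count model was used. From them, log2(FPKM + 1) was fitted with limma 3.58.1 in R 4.3.3 (1 mean per group over 12 libraries, eBayes with a mean-variance trend) for the 14931 loci that averaged 1 FPKM or more. Tests were two-sided with Benjamini-Hochberg adjustment over all 14931, and a call is an adjusted p under 0.05. The script was tested on simulated data. Positions, exons and sequences come from GENCODE M21 (GRCm38) through the Ensembl identifiers.

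The members and gene lists were chosen with earlier results of these data known. Named were loci called in any comparison, the 5 largest differences in each direction, the 10 highest means, the 3 nearest the threshold on each side and the 2 highest of each other list, and remaining members were added by class; some members are counted but not reported by name here. Alternatives covered the pseudocount, the filter, scaling, the replicate number as a block and each library left out.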

Additional observations from a re-analysis of the deposited data

How the results depend on the processing

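Kcnn2 passed the averaged test in all 19 alternatives that kept it (limma adjusted p 0.00175 to 0.0254) and Kcnt1 in all 18 (0.00167 to 0.0332). The number of Kcn loci called in the averaged comparison, 2, became 1 with a minimum mean of 5 FPKM, which leaves 9 loci and removes Kcnt1, and 3 with no filter, with protein-coding loci scaled to equal sums, and without male vehicle library 3 and male dexamethasone library 2, an alternative chosen after seeing the data. Over all loci tested, 1.77% were called with a minimum mean of 5 FPKM and 0.774% with no filter. The share was 2.47% with protein-coding loci scaled and 0.768% without that pair of libraries. With 1 library left out the Kcn count ranged from 2 to 3, and the share of all loci from 0.979% to 1.44%. In males and in females the Kcn count of 0 became 2 with protein-coding loci scaled to equal sums, and ranged from 0 to 1 with 1 library left out. The scaled fit called 0.401% of all its loci in males and 0.647% in females. The interaction and the sex comparison under vehicle stayed at 0 in the alternatives run. Of single-gene results, Kcnmb4 changed sign with protein-coding loci scaled (-0.0166), without the named pair of libraries (-0.0705), without male vehicle library 3 (-0.0535), without male dexamethasone library 1 (-0.00408) and without female dexamethasone library 1 (-0.00336), and Kcnd2 without the last (0.00916). Over the 12 fits with 1 library left out Kcnmb4 ran from -0.0535 to 0.144 and Kcnd2 from -0.225 to 0.00916. The cause was not tested.

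Replicate numbers are shared between groups, but the labels tie no number to a culture, litter or day. Libraries of the same number and sex correlated in their deviations from the group means at 0.0819 to 0.167, and libraries of other numbers at -0.147 to 0.0338. Each of the 12 libraries correlated best with its own number across treatments, a hint from the data and not from the design. With the replicate block the calls became 6 in the averaged comparison (2 higher, 4 lower), 2 in males and 3 in females. Over all 14931 loci the same fit called 5.38% in the averaged comparison (2.57% lower), 0.991% in males and 1.25% in females. The 4 lower loci were Kcna2 (limma adjusted p = 0.0346), Kcnc1 (0.0370), Kcnip3 (0.0254) and Kcnk3 (0.0155). The depth behind the FPKM is unknown, so counting error at low levels could not be weighed.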
